A study of Mus musculus with 21 samples.

Results

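Epicardial markers are genes transcribed in the epicardium, the outer cell layer of the heart. The 10 described here were Wt1, Tbx18, Tcf21, Bnc1, Aldh1a1, Aldh1a2, Upk3b, Upk1b, Lrrn4 and Sema3d, taken by name from the 24509 genes listed in both expression tables. Polyadenylated RNA was sequenced from hearts of CD1 mouse embryos, and the study compared hearts depleted of CHD4 with controls. CHD4 is the ATPase of NuRD, a chromatin complex that moves nucleosomes and removes acetyl groups from histones. The null hearts carried Chd4(Δflox/Δflox) and the flox hearts, the controls, carried Chd4(flox/flox). There were 5 null and 5 flox libraries at embryonic day (E) 9.5, and 3 null and 3 flox libraries at E10.5, given as biological replicates. The recombinase that made the null allele, the cells it acts in and the number of hearts per library are not given in the sources used here. Where CHD4 sits on chromatin was read by immunoprecipitation and sequencing (ChIP-seq) of wild-type hearts at E10.0, as 3 peak lists that come from 2 biological and 3 technical replicates.

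The epicardium arises from the proepicardium, a cell cluster near the venous pole that spreads over the myocardium at about midgestation. Epicardial cells then secrete growth signals, among them retinoic acid, and some of them undergo an epithelial to mesenchymal transition into fibroblasts and smooth muscle cells of vessels. Wt1 encodes a zinc finger factor, Tbx18 a T-box factor, Tcf21 a basic helix-loop-helix factor and Bnc1 the zinc finger factor basonuclin. Aldh1a1 and Aldh1a2 encode retinaldehyde dehydrogenases, the enzymes that make retinoic acid. Upk3b and Upk1b encode uroplakins, membrane proteins shared with urothelium and mesothelium. Lrrn4 encodes a membrane protein with leucine-rich repeats and Sema3d a secreted semaphorin.

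On mm10, the build of the files, the genes lay at chr2:105126529-105173614 (Wt1), chr9:87702800-87731260 (Tbx18), chr10:22817263-22820143 (Tcf21), chr7:81966657-81992299 (Bnc1), chr19:20492583-20643463 (Aldh1a1), chr9:71215789-71296243 (Aldh1a2), chr5:136038496-136044993 (Upk3b), chr16:38773182-38800203 (Upk1b), chr2:132866686-132894010 (Lrrn4) and chr5:12383161-12588953 (Sema3d). Promoter sequences were matched by symbol for 8 of the 10 in RefSeq (GRCm38.p6, the assembly of mm10), and Wt1 and Upk1b were not matched. The 5 printed below are the 250 bases before the transcription start. They are shown because they span what the CHD4 lists hold at these promoters, and capitals mark bases that lie under a CHD4 peak of at least 1 list. All 250 bases of Tbx18 (chr9:87731261-87731510, minus strand) lay under a peak in each of the 3 lists. In Tcf21 (chr10:22820144-22820393, minus strand) 186 bases lay under a peak of at least 1 list, 160 in list 1, 0 in list 2 and 102 in list 3. In Upk3b (chr5:136038246-136038495, plus strand) 143 bases and in Aldh1a2 (chr9:71215539-71215788, plus strand) 34 bases lay under a peak of list 1. Bnc1 (chr7:81992300-81992549, minus strand) is given as a promoter with no peak.
Tbx18: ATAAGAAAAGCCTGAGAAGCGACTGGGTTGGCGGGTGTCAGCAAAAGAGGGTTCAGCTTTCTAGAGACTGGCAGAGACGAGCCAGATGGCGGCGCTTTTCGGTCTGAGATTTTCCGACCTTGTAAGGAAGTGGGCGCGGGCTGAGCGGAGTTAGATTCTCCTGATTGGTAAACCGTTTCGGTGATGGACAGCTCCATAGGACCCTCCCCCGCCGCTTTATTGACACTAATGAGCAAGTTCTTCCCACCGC
Tcf21: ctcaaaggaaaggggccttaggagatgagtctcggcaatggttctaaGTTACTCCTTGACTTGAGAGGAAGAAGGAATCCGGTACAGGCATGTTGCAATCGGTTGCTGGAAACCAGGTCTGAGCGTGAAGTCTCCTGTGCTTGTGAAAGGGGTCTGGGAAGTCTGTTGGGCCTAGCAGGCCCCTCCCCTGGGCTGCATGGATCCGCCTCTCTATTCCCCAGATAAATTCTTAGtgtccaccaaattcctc
Upk3b: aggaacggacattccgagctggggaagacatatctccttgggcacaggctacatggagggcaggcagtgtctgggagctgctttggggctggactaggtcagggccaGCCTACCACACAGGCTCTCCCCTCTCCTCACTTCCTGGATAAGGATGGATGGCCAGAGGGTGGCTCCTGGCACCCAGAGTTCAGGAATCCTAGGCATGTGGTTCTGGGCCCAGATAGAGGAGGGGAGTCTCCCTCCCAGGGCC
Aldh1a2: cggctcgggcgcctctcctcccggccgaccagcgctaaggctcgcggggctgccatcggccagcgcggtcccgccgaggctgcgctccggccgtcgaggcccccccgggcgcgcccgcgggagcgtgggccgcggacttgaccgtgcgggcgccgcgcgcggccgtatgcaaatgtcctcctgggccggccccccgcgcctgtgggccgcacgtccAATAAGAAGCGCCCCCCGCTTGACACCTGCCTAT
Bnc1: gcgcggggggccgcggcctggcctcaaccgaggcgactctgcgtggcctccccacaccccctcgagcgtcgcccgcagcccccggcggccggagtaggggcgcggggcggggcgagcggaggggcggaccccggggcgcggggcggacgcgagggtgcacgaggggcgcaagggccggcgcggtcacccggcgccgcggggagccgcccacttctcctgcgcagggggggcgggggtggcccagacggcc

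Levels are given as RPKM, reads per kilobase of gene length scaled to the total reads of the library, so they can be compared between genes. Libraries held 17.1 to 20.1 M reads in null and 19.6 to 23.5 M in flox hearts at E9.5, and 18.0 to 18.9 M in null and 17.3 to 18.0 M in flox hearts at E10.5. Chd4 was at 40.7 to 48.8 RPKM in null and 91.2 to 94.6 RPKM in flox libraries at E9.5, and it fell by 1.01 on the log2 scale (SE 0.0524, limma adjusted p = 1.69e-06). At E10.5 it was at 48.2 to 57.4 RPKM in null and 67.2 to 91.1 RPKM in flox libraries (log2 difference -0.55, limma adjusted p = 0.116). A gene was tested where its mean over the libraries of a stage was at least 0.5 RPKM, and called where the limma adjusted p over all tested genes was under 0.05. All 10 epicardial markers passed that filter at both stages.

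All 10 markers were detected in every library, with 37 reads (Aldh1a2, flox 1 at E9.5) as the lowest count. Upk3b had the highest mean in each of the 4 groups, at 48.9 ± 21.0 RPKM in null and 27.9 ± 22.5 RPKM in flox hearts at E9.5 (SD, n = 5 each). At E10.5 it was at 73.2 ± 7.53 RPKM in null and 72.3 ± 1.37 RPKM in flox hearts (SD, n = 3 each), and its range overlapped with that of no other marker. At E9.5 the order that followed in null hearts was Upk1b, Tbx18, Tcf21, Wt1, Lrrn4, Aldh1a1, Aldh1a2, Bnc1 and Sema3d, and the ranges of all neighbours in it overlapped. In flox hearts at E9.5 it was Tbx18, Tcf21, Wt1, Upk1b, Lrrn4, Aldh1a1, Bnc1, Aldh1a2 and Sema3d, again with overlap between all neighbours. At E10.5 the null order was Tcf21, Upk1b, Tbx18, Aldh1a2, Wt1, Aldh1a1, Lrrn4, Sema3d and Bnc1, in which the ranges parted between Wt1 and Aldh1a1 and between Lrrn4 and Sema3d. The flox order at E10.5 was Tcf21, Tbx18, Upk1b, Wt1, Lrrn4, Aldh1a2, Aldh1a1, Bnc1 and Sema3d, with overlap between all of these neighbours. The lowest mean was 3.48 ± 1.56 RPKM (SD, n = 5), for Sema3d in flox hearts at E9.5.

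**Figure D1:**
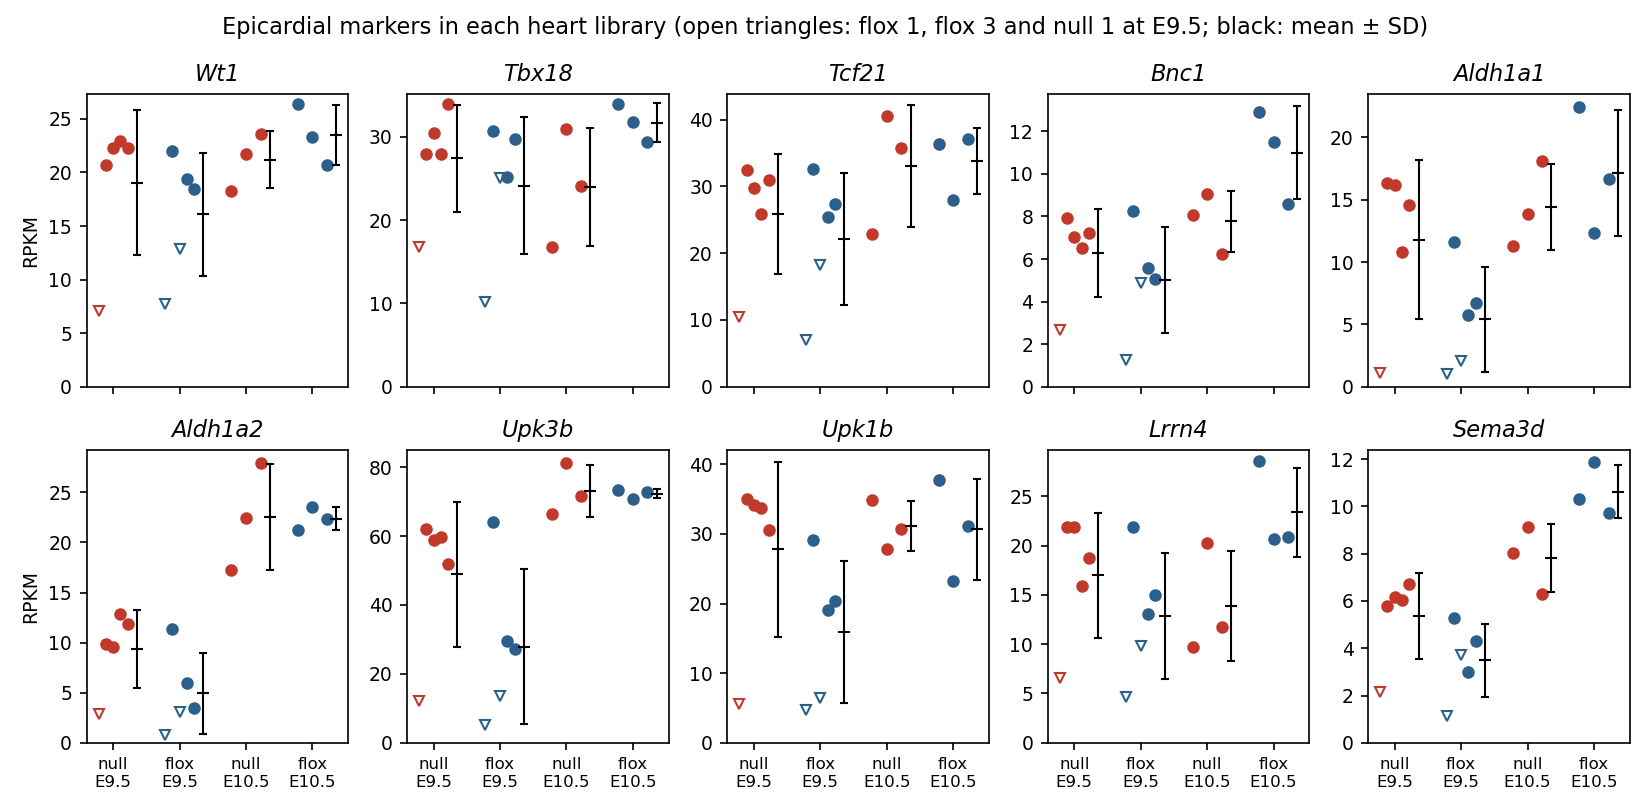
Level of each epicardial marker in RPKM (y axis, from 0, a scale of its own in each panel) in each library, by group (x axis; null red, flox blue), with the mean ± SD in black (n = 5 each at E9.5, 3 each at E10.5). The open triangles are null 1, flox 1 and flox 3 at E9.5, which lie under the other 7 libraries of that stage for 9 of the 10 markers. Sema3d is the exception, and for Tbx18 flox 3 is almost level with flox 4.

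A set of 3 libraries of E9.5 stood apart in these markers, and the E9.5 results are given with and without them. Summed over the 10 markers, null 1 held 67.1 RPKM, flox 1 43.7 RPKM and flox 3 99.7 RPKM. The other 4 null libraries held 222 to 240 RPKM and the other 3 flox libraries 152 to 237 RPKM. For 9 of the 10 markers all 3 libraries lay under all 7 others. The exception was Sema3d, whose level in flox 3 (3.73 RPKM) was above that in flox 4 (2.98 RPKM). Flox 1 had the lowest level of 9 markers and null 1 that of Wt1. The other 7 libraries averaged 1.69 times (Tbx18) to 8.48 times (Aldh1a1) the level of these 3. The reads of the 3 libraries, 19.7 M in null 1, 21.5 M in flox 1 and 19.6 M in flox 3, were within the 17.1 to 23.5 M of the stage, and that of flox 3 was the lowest among the flox libraries.

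Among these 3 libraries, the summed RPKM of the sinus venosus markers was 101 to 122, against 72.5 to 109 in the other 7. The foregut and liver markers summed to 3.32 to 6.16 RPKM in the 3 libraries and 4.92 to 36.1 RPKM in the 7 others. Cardiomyocyte markers summed to 14474 to 17281 RPKM in the 3 and 12084 to 16310 RPKM in the 7. The cushion mesenchyme markers summed to 269 to 274 RPKM in the 3 and 229 to 297 RPKM in the 7. Other epicardial and mesothelial genes overlapped, at 245 to 326 RPKM in the 3 and 277 to 577 RPKM in the 7. The growth signals of the epicardium and their receptors parted by a narrow gap. They summed to 1786 to 1868 RPKM in the 3 and 1903 to 2189 RPKM in the 7. Each sum follows the most abundant genes of its list. The retinoic acid pathway genes lay the other way, at 109 to 132 RPKM in the 3 and 86.4 to 109 RPKM in the 7. The part of these tissues and lists in the split was not tested.

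**Figure D2:**
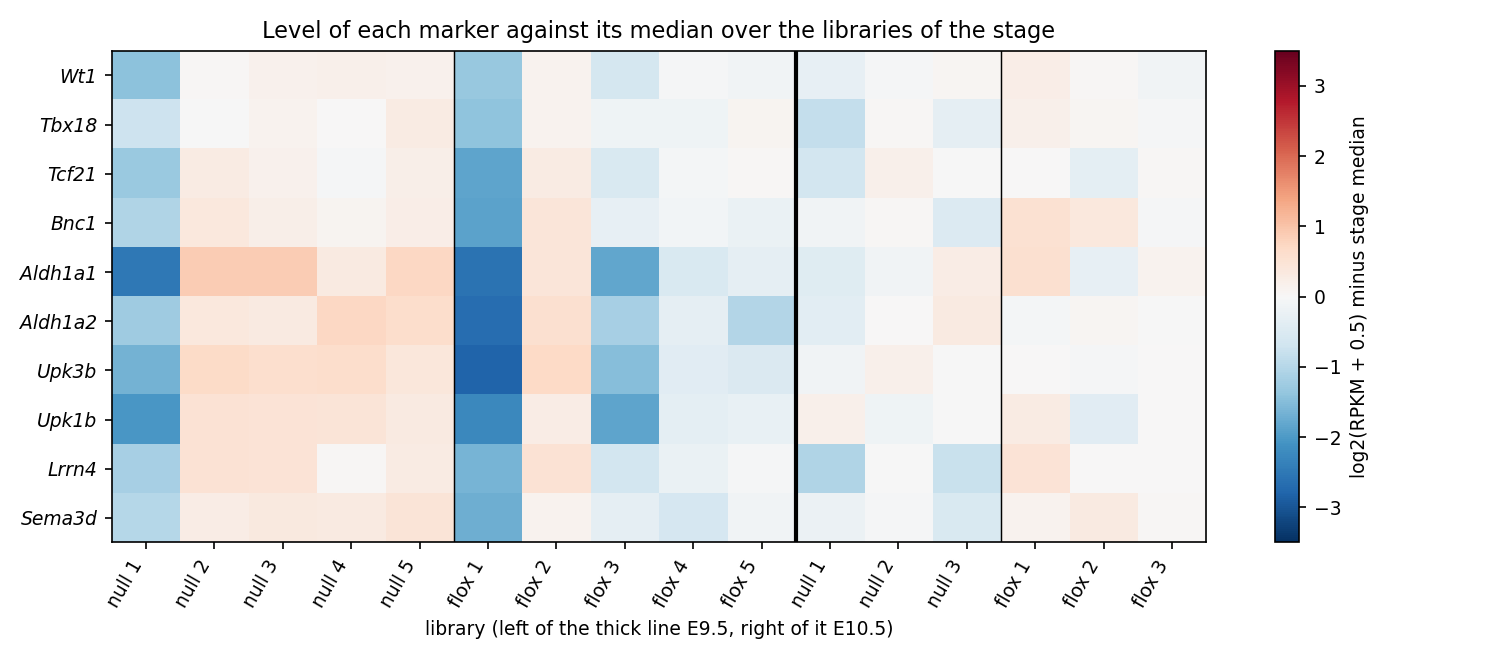
Level of each marker (rows) in each library (columns) as log2(RPKM + 0.5) minus the median over the libraries of its stage (colour, red above and blue below the median). At E9.5 null 1, flox 1 and flox 3 are below the median in nearly every row. At E10.5 null 1 is the lowest library in 7 of the 10 rows.

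The spread between libraries of 1 group was wide at E9.5. The SD of log2(RPKM + 0.5) within null hearts was 0.38 to 1.46 over the 10 markers, at the 90.2nd to 99.7th percentile of tested genes. Within flox hearts it was 0.59 to 1.32, at the 96.6th to 99.7th percentile. At E10.5 the SD was 0.15 to 0.53 in null hearts (19.7th to 87.5th percentile) and 0.03 to 0.42 in flox hearts (2.5th to 91.7th percentile). The ratio of the highest to the lowest library of E9.5 ran from 3.26 for Wt1 to 16.8 for Aldh1a2, and that of E10.5 from 1.22 for Upk3b to 2.95 for Lrrn4.

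At E9.5 the question was whether loss of CHD4 changes the level of epicardial markers in the heart. None of the 10 was called: 0 of 10 by limma, 0 of 10 at an unadjusted p under 0.05 and 0 of 10 by voom on the recovered reads, against 17.2% called and 32.4% at an unadjusted p under 0.05 among all 13643 tested genes. The log2 difference was above 0 for all 10, with a median of 0.51, while 42.1% of all tested genes were above 0 and their median was -0.04. The markers varied together over these 10 libraries (median pairwise Pearson r 0.95). Their 10 signs are thus not independent, and the share of all genes is no test of them. With single libraries left out, 5 of 10 passed at an unadjusted p without null 1, 2 of 10 without flox 2 and 0 without any of the others, and with sample weights 1 of 10 did. With the replicate number as a block 8 of 10 did, and 4 of 10 were called, as were 3698 of the 13643 tested genes. The share of all tested genes at an unadjusted p was not computed for these other fits. Their counts of markers thus have no share to be read against. Without flox 1, 7 of the 10 differences were above 0. The null and flox libraries overlapped for all 10 markers, and 14.1% of tested genes showed no overlap. In whole hearts, fewer cells of a type and less RNA per cell cannot be told apart.

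Among the transcription factors, Wt1 was at 7.03, 20.7, 22.3, 22.9 and 22.3 RPKM in null libraries 1 to 5, and at 7.74, 22.0, 12.8, 19.4 and 18.4 RPKM in flox libraries 1 to 5. The antisense gene Wt1os lies beside Wt1, with no overlap in the RefSeq gene table. How counting treated strand is not stated, so reads of any antisense transcript that runs into Wt1 could not be told apart from its own. Null 1 and flox 1 were the lowest, and the other 4 null libraries were above 4 of the 5 flox libraries. The difference was 0.21 on the log2 scale (SE 0.353, limma adjusted p = 0.714), the smallest of the 10. Tbx18 was at 16.8, 27.9, 30.5, 27.9 and 34.0 RPKM in null and at 10.2, 30.7, 25.1, 25.1 and 29.7 RPKM in flox libraries. Tcf21 was at 10.4, 32.4, 29.7, 25.9 and 30.9 RPKM in null and at 7.0, 32.5, 18.2, 25.4 and 27.4 RPKM in flox libraries. For both, the first library of each genotype was the lowest, and the rest overlapped. Their log2 differences were 0.24 (SE 0.285, limma adjusted p = 0.608) for Tbx18 and 0.29 (SE 0.413, limma adjusted p = 0.671) for Tcf21. Without flox 1 the log2 differences of these 3 genes were below 0, at -0.02 for Wt1, -0.04 for Tbx18 and -0.07 for Tcf21, and without null 1 they were 0.53, 0.40 and 0.58. Bnc1 was at 2.68, 7.95, 7.02, 6.53 and 7.23 RPKM in null and at 1.28, 8.24, 4.87, 5.58 and 5.07 RPKM in flox libraries. Flox 2 was its highest library and flox 1 its lowest, so the flox range held the whole null range (log2 difference 0.39, SE 0.398, limma adjusted p = 0.535). It was 0.03 without flox 1 and 0.64 without null 1.

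The retinaldehyde dehydrogenases had the largest log2 differences of the 10 markers, and neither passed the test. Aldh1a1 was at 1.08, 16.3, 16.2, 10.8 and 14.5 RPKM in null libraries, against 0.992, 11.6, 2.07, 5.73 and 6.71 RPKM in flox libraries. Null libraries 2, 3 and 5 were above every flox library, while null 1 was under 4 of the 5. The means were 11.8 ± 6.38 RPKM in null and 5.42 ± 4.21 RPKM in flox hearts (SD, n = 5 each), with a log2 difference of 1.04 (SE 0.724, 95% interval -0.56 to 2.63, limma adjusted p = 0.354). Without null 1 the difference was 1.68 and Aldh1a1 was called (limma adjusted p = 0.0463), and without flox 1 it was 0.63. Aldh1a2, the main retinoic acid synthase of the early embryo, was at 2.89, 9.83, 9.55, 12.9 and 11.8 RPKM in null and at 0.766, 11.4, 3.10, 5.95 and 3.46 RPKM in flox libraries. Flox 2 alone among the flox libraries reached the level of null 2 to null 5. The means were 9.39 ± 3.89 RPKM in null and 4.93 ± 4.04 RPKM in flox hearts (SD, n = 5 each), and the log2 difference of 1.08 (SE 0.549, 95% interval -0.13 to 2.29, limma adjusted p = 0.202) was the largest of the 10. It was 0.64 without flox 1 and 1.45 without flox 2.

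The uroplakin genes were low in the same 3 libraries. Upk3b was at 12, 62.1, 58.8, 59.9 and 51.8 RPKM in null and at 5.21, 64.0, 13.5, 29.5 and 27.3 RPKM in flox libraries. Upk1b was at 5.50, 35.0, 34.1, 33.7 and 30.6 RPKM in null and at 4.71, 29.2, 6.44, 19.0 and 20.3 RPKM in flox libraries. Null 2 to null 5 were close to one another for both genes, whereas the flox libraries were spread over their whole range. The log2 difference was 1.02 for Upk3b (SE 0.630, limma adjusted p = 0.292) and 0.83 for Upk1b (SE 0.596, limma adjusted p = 0.366). Without flox 1 these were 0.54 and 0.49, and without null 1 they were 1.46 and 1.33. Lrrn4 was at 6.54, 21.9, 21.8, 15.9 and 18.8 RPKM in null and at 4.68, 21.9, 9.77, 13 and 14.9 RPKM in flox libraries (log2 difference 0.43, SE 0.402, limma adjusted p = 0.495). Sema3d was at 2.15, 5.77, 6.15, 6.04 and 6.71 RPKM in null and at 1.12, 5.26, 3.73, 2.98 and 4.32 RPKM in flox libraries (log2 difference 0.59, SE 0.357, limma adjusted p = 0.278). Apart from null 1, every null library was above every flox library for Sema3d. Without flox 1 the log2 differences were 0.13 for Lrrn4 and 0.30 for Sema3d, and without null 1 they were 0.73 and 0.86.

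Leaving out null 1, flox 1 and flox 3, a choice made from the markers' own levels, left 4 null and 3 flox libraries. That choice takes away low values of the genes then tested, and the SE of Upk1b went from 0.596 to 0.139. The p-values of the markers in this paragraph are thus a description and no support for a difference. The shares of all tested genes beside them were not selected in this way. All 10 log2 differences stayed above 0, and 5 of 10 passed at an unadjusted p under 0.05, against 26.1% of the 13668 genes then tested by limma. Upk1b was then called, at 33.4 ± 1.92 RPKM in null (SD, n = 4) and 22.8 ± 5.52 RPKM in flox hearts (SD, n = 3), a log2 difference of 0.56 (limma adjusted p = 0.0409), and 9.87% of tested genes were called. Upk1b and Sema3d had every null library above every flox library, as did 10.4% of tested genes. The fits with limma gave log2 differences of 0.86 for Aldh1a1 (adjusted p = 0.0570) and 0.54 for Sema3d (adjusted p = 0.0728), neither of which passed. In these 7 libraries the ratio of the null to the flox mean was near 1 for the transcription factors, from 1.05 for Tcf21 to 1.14 for Bnc1, and 1.80 for Aldh1a1.

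**Figure D3:**
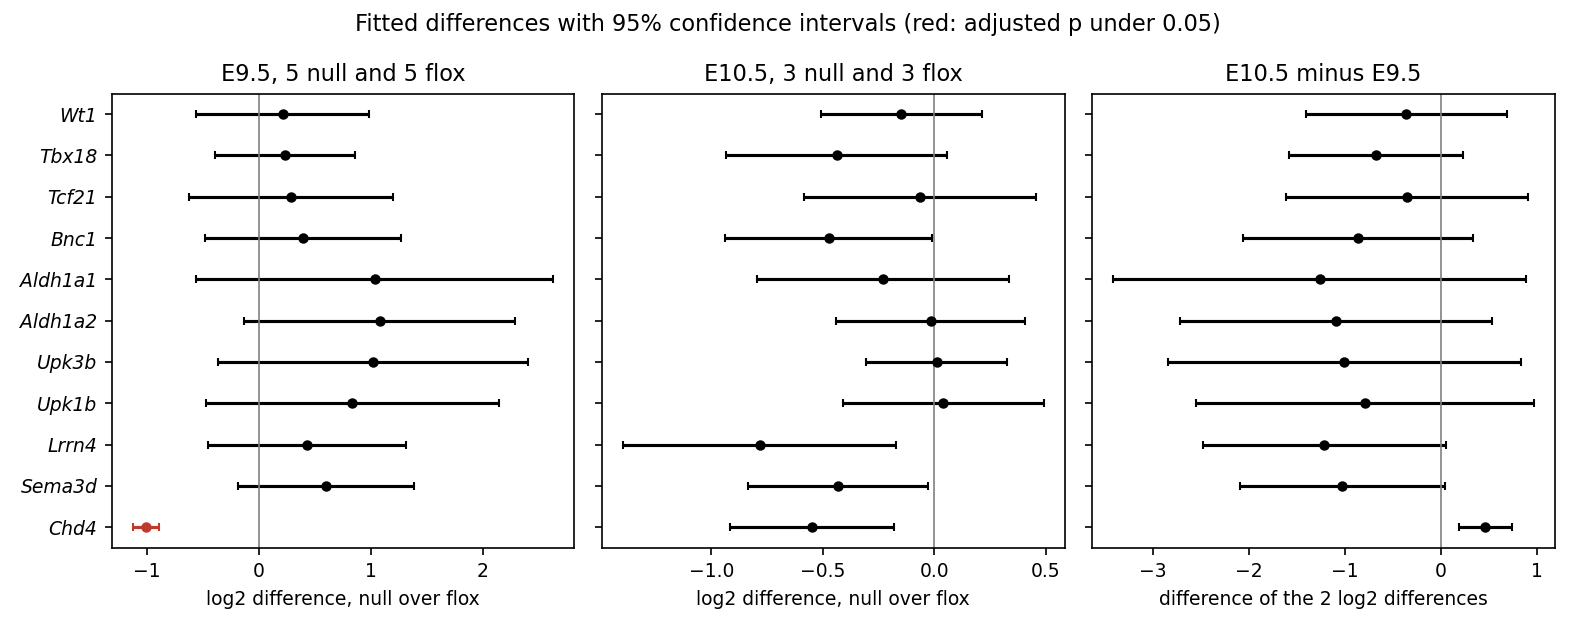
Log2 difference of null over flox hearts (x axis, with 95% intervals from limma) for the 10 markers and Chd4 at E9.5 (left) and E10.5 (middle), and the difference between those differences (right). The points of all 10 markers lie above 0 at E9.5 and below 0 in the right panel, with intervals wider at E9.5 than at E10.5, and only Chd4 at E9.5 is past the threshold.

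At E10.5, 0 of 10 markers were called by limma and 0 of 10 by voom, and 3 of 10 passed at an unadjusted p under 0.05 in both. Among all 14100 tested genes 2.07% were called and 22.9% passed at an unadjusted p. The log2 difference was below 0 for 8 of the 10, with a median of -0.19, while 46.3% of tested genes were above 0 and their median was -0.03. Lrrn4 and Sema3d had every null library below every flox library, an arrangement found in 17.4% of tested genes, and the other 8 markers overlapped. The number at an unadjusted p under 0.05 was 0 without null 3, without flox 1 or with sample weights, 1 without null 1 or flox 2, 2 without flox 3 and 4 without null 2. The share of all tested genes was not computed for these fits. Null 1 was the lowest library of the stage for 7 of the 10 markers, with a sum of 214 RPKM against 256 and 277 RPKM in the other null libraries and 257 to 303 RPKM in flox libraries.

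Lrrn4 was at 9.69, 20.2 and 11.7 RPKM in null libraries 1 to 3, against 28.5, 20.7 and 20.8 RPKM in flox libraries 1 to 3. Null 2 came within reach of flox 2 and flox 3, and null 1 and null 3 lay well under them. The means were 13.9 ± 5.59 RPKM in null and 23.4 ± 4.5 RPKM in flox hearts (SD, n = 3 each), a log2 difference of -0.78 (SE 0.268, unadjusted p = 0.0184, limma adjusted p = 0.149) that was -0.57 without null 1 and -1.08 without null 2. Sema3d was at 8.04, 9.12 and 6.30 RPKM in null and at 10.3, 11.9 and 9.72 RPKM in flox libraries. Its groups parted between 9.12 and 9.72 RPKM (log2 difference -0.43, SE 0.176, limma unadjusted p = 0.0391, adjusted p = 0.197), and the difference was -0.29 without null 3 and -0.54 without null 2. The transcription factor gene Bnc1 was at 8.05, 9.03 and 6.21 RPKM in null and at 12.9, 11.5 and 8.61 RPKM in flox libraries. Null 2 was above flox 3, and the log2 difference was -0.47 (SE 0.203, limma unadjusted p = 0.0471, adjusted p = 0.212). It was -0.33 without null 3 and -0.63 without flox 3.

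Tbx18 was at 16.8, 31.0 and 24.1 RPKM in null and at 34.0, 31.8 and 29.4 RPKM in flox libraries at E10.5, with null 1 the lowest and null 2 inside the flox range (log2 difference -0.44, limma adjusted p = 0.264, and -0.21 without null 1 or -0.64 without null 2). Wt1 was at 18.3, 21.7 and 23.6 RPKM in null and at 26.4, 23.3 and 20.7 RPKM in flox libraries. Tcf21 was at 22.8, 40.5 and 35.7 RPKM in null and at 36.3, 28.0 and 37.1 RPKM in flox libraries. In both the groups crossed, and the log2 differences were -0.15 for Wt1 and -0.06 for Tcf21 (limma adjusted p = 0.606 and 0.889). With single libraries left out they were -0.23 to -0.05 for Wt1 and -0.23 to 0.18 for Tcf21, each highest without null 1. Aldh1a1 was at 11.3, 13.8 and 18.1 RPKM in null and at 22.4, 12.4 and 16.6 RPKM in flox libraries. Aldh1a2 was at 17.3, 22.4 and 27.9 RPKM in null and at 21.3, 23.6 and 22.3 RPKM in flox libraries. The differences of the dehydrogenase genes were -0.23 for Aldh1a1 (95% interval -0.79 to 0.34) and -0.01 for Aldh1a2 (95% interval -0.44 to 0.41). With single libraries left out they were -0.44 (without flox 2) to -0.02 (without flox 1) for Aldh1a1 and -0.18 (without null 3) to 0.16 (without null 1) for Aldh1a2. Upk3b was at 66.5, 81.3 and 71.6 RPKM in null and at 73.5, 70.8 and 72.7 RPKM in flox libraries, a difference of 0.01 (95% interval -0.31 to 0.33). Upk1b was at 34.9, 27.8 and 30.7 RPKM in null and at 37.7, 23.2 and 31.1 RPKM in flox libraries, a difference of 0.04 (95% interval -0.41 to 0.49). With single libraries left out these were -0.07 (without null 2) to 0.08 (without null 1) for Upk3b and -0.14 (without flox 2) to 0.20 (without flox 1) for Upk1b.

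The difference between the stages was tested in 1 fit of all 16 libraries. It was below 0 for all 10 markers, with a median of -0.94, against a median of -0.01 over 13418 tested genes, of which 49.1% were above 0. The markers varied together across libraries, so these 10 signs are not independent. The difference between the stages was small beside its error for each marker. That difference was called for 0 of 10 by limma, 0 of 10 by voom and 0 of 10 at an unadjusted p under 0.05. Among tested genes 4.04% were called and 26.4% passed at an unadjusted p. The smallest adjusted p were those of Lrrn4 (-1.21, SE 0.595, limma adjusted p = 0.207) and Sema3d (-1.02, SE 0.504, limma adjusted p = 0.208). With single libraries left out, the difference was -1.51 to -0.91 for Lrrn4, -1.29 to -0.73 for Sema3d, -1.91 to -0.86 for Aldh1a1, -1.46 to -0.66 for Aldh1a2, -1.45 to -0.53 for Upk3b and -1.29 to -0.45 for Upk1b. For the transcription factor genes it was -0.67 to -0.13 (Wt1), -0.88 to -0.39 (Tbx18), -0.64 to 0.0091 (Tcf21, above 0 without flox 1 of E9.5) and -1.12 to -0.50 (Bnc1). Without null 1, flox 1 and flox 3 of E9.5 limma called 0 of all 13453 tested genes, so that fit cannot tell the markers from other genes by calls. At an unadjusted p under 0.05 4 of 10 markers passed in it, against 19.9% of tested genes, with the libraries chosen from the markers' own levels. Without null 1 of E9.5 alone 4 of 10 passed at an unadjusted p, without flox 2 of E9.5 3 of 10, and without any other single library at most 1. With the replicate number as a block 7 of 10 passed, and 3 of 10 were called, as were 1384 of the 13418 tested genes. For the block fit and the fits without 1 library, the share of all tested genes at an unadjusted p was not computed.

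Between the stages the table, the RNA input (200 ng at E9.5, 300 ng at E10.5) and the stage cannot be told apart, so the following levels have no test. In null hearts the E10.5 mean was 0.82 (Lrrn4) to 2.40 (Aldh1a2) times the E9.5 mean, with a median of 1.23. In flox hearts the same ratio was 1.31 (Tbx18) to 4.54 (Aldh1a2) times, with a median of 2.06. Every null library of E10.5 was above every null library of E9.5 for Aldh1a2 and Upk3b, as for 13% of genes tested at both stages. In flox hearts this held for Aldh1a2, Upk3b, Aldh1a1, Bnc1 and Sema3d, and for 27.4% of tested genes.

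Across libraries the markers varied together, and less closely without the 3 libraries of E9.5 that stood apart. Values of each marker were taken as log2(RPKM + 0.5) minus the mean of their group, and Pearson r was computed for the 45 pairs of markers as a description. Over the 16 libraries the median r was 0.89, and all 45 pairs were above 0. Over the 13 libraries other than null 1, flox 1 and flox 3 of E9.5 it was 0.45, with 44 of 45 pairs above 0 and 18 above 0.5. Over the 6 libraries of E10.5 it was 0.36 (-0.64 to 0.94), with 33 of 45 pairs above 0 and 17 above 0.5. Pairs of other genes were not counted in this way, so these counts have no baseline. Points of 1 library share its dissection, RNA and reads.

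Of 12284 other genes that averaged 1 RPKM or more at both stages, 133 (1.08%) had an r above 0.8 with the mean of the markers over the 16 libraries, and 38 had one over the 13 libraries. Ildr2, an immunoglobulin-like membrane receptor gene, was the most alike over both, with an r of 0.987 and 0.963. It averaged 4.97 ± 1.91 RPKM in null and 2.71 ± 1.64 RPKM in flox hearts at E9.5 (SD, n = 5 each), and was at most 1.78 RPKM in the 3 libraries that stood apart and at least 2.71 RPKM in the others. The next 7 over 16 libraries were Myo1d, an unconventional myosin (0.971), Itga4, the integrin alpha 4 chain (0.966), Dcn, the proteoglycan decorin (0.962), Lipg, endothelial lipase (0.961), Stk26, a protein kinase (0.955), Ptn, the growth factor pleiotrophin (0.955) and Col8a2, a chain of collagen VIII (0.953). Over the 13 libraries the r of these 7 was 0.54 (Ptn) to 0.82 (Lipg).

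Other genes known from the epicardium or mesothelium did not all follow the 10 markers. Of 16 such genes 11 were tested at E9.5, where 1 rose and 0 fell, and 14 at E10.5, where 3 rose and 0 fell. Over all tested genes 6.87% rose at E9.5 and 1.77% at E10.5. The genes that rose encode keratins of simple epithelia. Krt8 was at 22.6 ± 3.17 RPKM in null and 15.0 ± 3.82 RPKM in flox hearts at E9.5 (SD, n = 5 each; log2 difference 0.60, limma adjusted p = 0.0234). That call was lost without null 2, flox 1 or flox 5, and without the 3 libraries that stood apart. At E10.5 Krt8 was at 20.4, 17.4 and 19.1 RPKM in null libraries, against 6.78, 4.27 and 6.58 RPKM in flox libraries. The groups were far apart (log2 difference 1.63, SE 0.193, limma adjusted p = 0.00739), and Krt8 was the keratin called for the difference between stages too (1.04, limma adjusted p = 0.0383). In 13 of 27 other settings that call was lost, among them the omission of the 3 libraries that stood apart, which left 0 genes called in all. Krt19 was at 176, 85.9 and 101 RPKM in null and at 27.3, 16.9 and 26.7 RPKM in flox libraries at E10.5 (2.29, limma adjusted p = 0.010). Krt18 was at 122, 76.6 and 91.7 RPKM in null and at 38.9, 28.7 and 44.7 RPKM in flox libraries (1.35, limma adjusted p = 0.0254). Every null library was above every flox library for all 3 keratins at E10.5, as for 13.9% of tested genes. The call of Krt18 was lost without null 3 or any 1 of the flox libraries. Foregut and liver markers summed to 24.8, 1425 and 1010 RPKM in null and to 5.88, 189 and 7.31 RPKM in flox libraries at E10.5. The part of these tissues in the keratin values was not tested. The E9.5 median of the 11 tested genes was 0.40 and the E10.5 median of the 14 was 0.13.

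Of the retinoic acid pathway 15 of 17 genes were tested at each stage. At E9.5 0 rose and 2 fell, against 10.3% of all tested genes that fell, and the median was 0.14. Rxrb, a retinoid X receptor that pairs with the retinoic acid receptors, was at 12.8 to 14.6 RPKM in null and 15.9 to 17.3 RPKM in flox libraries, and fell by 0.27 on the log2 scale (limma adjusted p = 0.00530). Rxrg, another retinoid X receptor, was at 0.853 ± 0.353 RPKM in null and 1.45 ± 0.163 RPKM in flox hearts (SD, n = 5 each; -0.56, limma adjusted p = 0.0319), a call that the omission of 8 of the 10 libraries, all but null 1 and flox 2, ended. At E10.5 0 rose and 1 fell, against 0.305% of tested genes. This was Rdh10, the dehydrogenase that supplies retinaldehyde to the Aldh1a enzymes. It was at 2.71, 3.31 and 2.5 RPKM in null and at 5.03, 6.41 and 6.27 RPKM in flox libraries, and fell by 0.94 on the log2 scale (SE 0.179, limma adjusted p = 0.0395). The call was lost with any 1 of the 6 libraries left out. At E9.5 the log2 difference of Rdh10 was 0.01, and the difference between stages was called (-0.95, SE 0.194, limma adjusted p = 0.0245), though not without null 3 or null 5 of E9.5, flox 1 or flox 2 of E10.5, or the 3 libraries that stood apart. Those settings left 60, 20, 4, 9 and 0 genes called in all, so the loss was not particular to Rdh10.

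Of 19 growth signals of the epicardium and their receptors 16 were tested at E9.5, where 1 rose and 1 fell. Over all tested genes 6.87% rose and 10.3% fell at that stage. Epor, the erythropoietin receptor, which red cell precursors express too, was at 19.3 ± 5.48 RPKM in null and 10.1 ± 3.30 RPKM in flox hearts (SD, n = 5 each; log2 difference 0.91, limma adjusted p = 0.0187). Erythroid markers were higher as well: all 8 were called as higher in null hearts at E9.5, with log2 differences of 1.04 to 1.61, and they summed to 27761 to 75010 RPKM in null and 10962 to 27967 RPKM in flox libraries. The part of red cells in the value of Epor was not tested. Vcam1, the myocardial ligand of integrin alpha 4, was at 30.8 to 36.6 RPKM in null and 38.1 to 50.8 RPKM in flox libraries and fell by 0.42 (limma adjusted p = 0.00669). At E10.5 0 of 17 were called by limma and 1 of 17 passed at an unadjusted p under 0.05, against 2.07% and 22.9% of all tested genes. The most abundant of these genes were Igf2, the insulin-like growth factor the epicardium secretes, at 1349 ± 234 RPKM in null and 1545 ± 167 RPKM in flox hearts, and Itgb1, the integrin beta 1 chain, at 194 ± 37.3 RPKM in null and 238 ± 39.8 RPKM in flox hearts (SD, n = 3 each). Neither passed (log2 differences -0.21 and -0.30, limma adjusted p = 0.624 and 0.403). The whole list summed to a mean of 1757 RPKM in null and 2008 RPKM in flox hearts at E10.5, most of it Igf2.

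The 10 genes of epithelial to mesenchymal transition were all tested. In this list 1 gene rose and 1 fell at E9.5, against 6.87% and 10.3% of all tested genes. At E9.5 the repressor gene Snai1 was at 5.93 ± 1.5 RPKM in null and 8.33 ± 0.535 RPKM in flox hearts and fell by 0.49 (limma adjusted p = 0.0366). Zeb2, which encodes another repressor, was at 7.90 ± 0.299 RPKM in null and 6.81 ± 0.435 RPKM in flox hearts (SD, n = 5 each) and rose by 0.20 (limma adjusted p = 0.0416). The call of Snai1 was lost without null 3, null 5 or any 1 of the flox libraries, and that of Zeb2 without any 1 library other than null 2 and flox 5. Both were lost without the 3 libraries that stood apart. At E10.5 0 of 10 were called by limma and 1 of 10 passed at an unadjusted p, against 2.07% and 22.9% of all tested genes. The most abundant were Vim, the mesenchymal filament vimentin, at 691 ± 114 RPKM in null and 567 ± 99.2 RPKM in flox hearts (SD, n = 3 each), and Twist1, a mesenchymal transcription factor gene. Their log2 differences were 0.29 and -0.15 (limma adjusted p = 0.457 and 0.688). The difference between stages was called for Tgfbr1, a receptor of transforming growth factor beta, at 26.4 ± 6.61 RPKM in null and 44.4 ± 2.22 RPKM in flox hearts of E10.5 (SD, n = 3 each; -0.83, limma adjusted p = 0.0244). That call was lost without null 3 or null 5 of E9.5, flox 1 or flox 2 of E10.5, or the 3 libraries that stood apart, settings that left 60, 20, 4, 9 and 0 genes called in all.

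Relatives of the markers by gene family were read at the same stages. Of 17 such genes 8 were tested at E9.5, where 2 rose and 1 fell, and 9 at E10.5, where 1 rose and 0 fell. Over all tested genes 6.87% rose and 10.3% fell at E9.5, and 1.77% rose and 0.305% fell at E10.5. Sema3b, a secreted semaphorin like Sema3d, was at 2.62 to 4.83 RPKM in null and 0.604 to 1.72 RPKM in flox libraries at E9.5 (log2 difference 1.32, SE 0.205, limma adjusted p = 0.00215). At E10.5 Sema3b was at 5.60, 3.72 and 3.46 RPKM in null and at 1.22, 0.930 and 0.966 RPKM in flox libraries (1.61, SE 0.222, limma adjusted p = 0.0140), a call lost without any 1 of the flox libraries. Every null library was above every flox library at both stages. Sema3c, known from the outflow tract, was at 6.44 to 9.51 RPKM in null and 11.1 to 13.5 RPKM in flox libraries at E9.5 and fell by 0.65 (limma adjusted p = 0.00257). Sema3f was at 6.80 ± 0.937 RPKM in null and 4.80 ± 0.973 RPKM in flox hearts at E9.5 (SD, n = 5 each; 0.47, limma adjusted p = 0.0326), a call lost without null 2, null 3 or null 4, without flox 1, flox 3 or flox 5, and without the 3 libraries that stood apart. Upk2, the uroplakin of urothelium, was listed at 0 in every library of E9.5.

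Some of the 10 markers are also expressed outside the epicardium, in the lining of the body cavities and the urogenital ridge (Wt1) or the sinus venosus (Tbx18), so markers of other tissues were read beside them. Of 8 urogenital ridge and body cavity genes, Pax8 rose at both stages, at 1.01 to 2.18 RPKM in null and 0.0752 to 0.462 RPKM in flox libraries at E9.5 (log2 difference 1.51, limma adjusted p = 0.000771) and 2.22 to 5.39 RPKM in null and 0.152 to 0.880 RPKM in flox libraries at E10.5 (2.12, limma adjusted p = 0.0284). The E10.5 call of Pax8 was lost without null 3 or any 1 of the flox libraries. In the same list Nr5a1 was at most 0.0466 RPKM, Pax2 at most 0.255 RPKM and Emx2 at most 0.728 RPKM in any library. Other members were present, with Osr1 at 2.11 to 5.58 RPKM, Lhx9 at 0.609 to 3.27 RPKM and Lhx2 at 0.209 to 6.87 RPKM over the libraries of both stages. The list summed to 105 to 151 RPKM in null and 125 to 157 RPKM in flox hearts at E9.5, and to 93.8 to 115 RPKM in null and 83 to 92.6 RPKM in flox hearts at E10.5; most of each sum was Gata4, which heart muscle expresses too. The 5 sinus venosus genes were at a summed 72.5 to 117 RPKM in null and 93.6 to 122 RPKM in flox hearts at E9.5, where 1 of 5, Tbx5, fell by 0.27 (limma adjusted p = 0.0498), a call that held without null 1 and was lost without any 1 of the other libraries. Foregut and liver genes summed to 24.8, 1425 and 1010 RPKM in null and to 5.88, 189 and 7.31 RPKM in flox libraries 1 to 3 at E10.5, and none of the 8 was called by limma (4 of 8 at an unadjusted p under 0.05). Null 2, null 3 and flox 2 held most of that RNA, while the epicardial sum of the same stage was 214, 277 and 256 RPKM in null and 303, 257 and 269 RPKM in flox libraries. Of 9 cardiomyocyte genes 2 fell at E9.5, Myh6 (-0.76) and Actc1 (-0.35, a call lost without any 1 library other than null 1 and flox 2), and 0 were called at E10.5 by limma (0 at an unadjusted p under 0.05). The limma fits called 0 of 8 endothelial, 0 of 8 cushion mesenchyme, 0 of 5 pharyngeal mesoderm and 0 of 1 tested neural crest genes at E9.5, with 1, 2, 2 and 0 at an unadjusted p. At E10.5 they called 0 of 8, 0 of 8, 0 of 6 and 0 of 1, with 2, 2, 0 and 0 at an unadjusted p, and 0 of 8 erythroid and 0 of 5 sinus venosus genes, with 0 and 0. Over all tested genes 17.2% were called and 32.4% passed at an unadjusted p at E9.5, and 2.07% and 22.9% at E10.5. The part of these tissues in the markers' values was not tested.

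**Figure D4:**
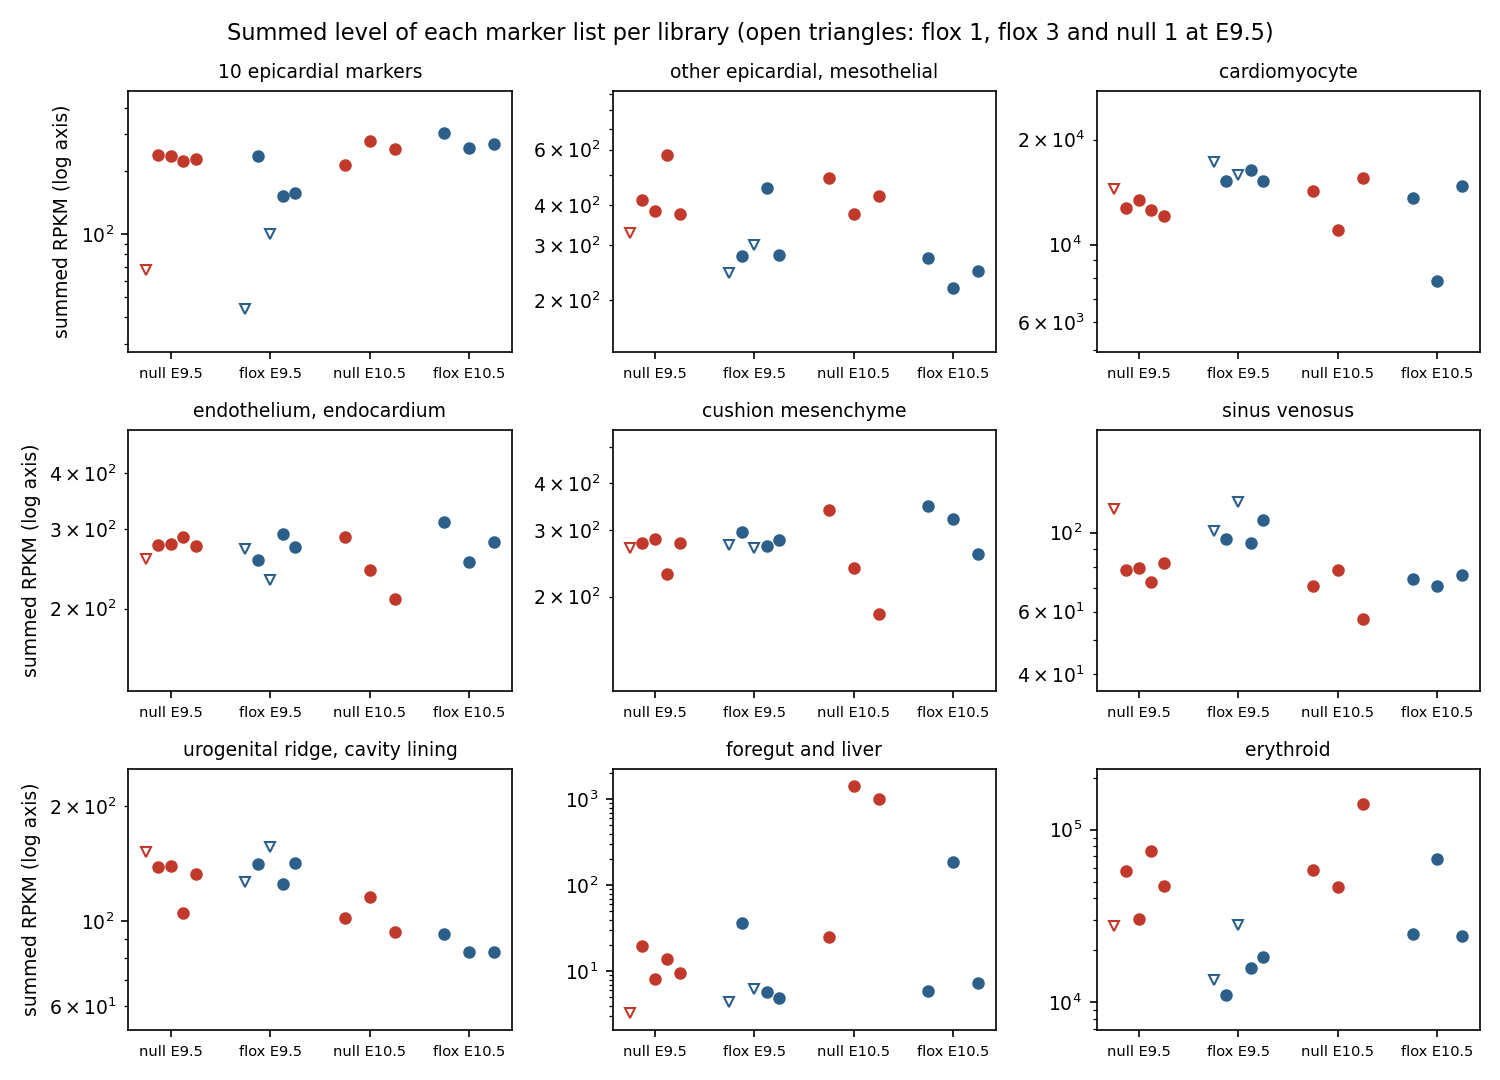
Summed RPKM of 9 marker lists (panels, log y axes with a range of their own) in each library by group (x axis; null red, flox blue; open triangles null 1, flox 1 and flox 3 at E9.5). In the 10 epicardial markers these 3 libraries of E9.5 lie at 43.7 to 99.7 RPKM and the other 7 at 152 to 240 RPKM. In the other panels the ranges of the 3 and the 7 overlap, with the sinus venosus sum reaching 122 RPKM in the 3 and 109 RPKM in the 7. The growth signals and receptors, which are not drawn, part by a narrow gap.

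The authors' deposited tables of genes that passed their own threshold listed 0 of the 10 markers at E9.5, among 3094 genes, and 0 of 10 at E10.5, among 1357 genes. The expression tables list 24509 genes, most of which are absent from these lists too. Absence from them does not show that a marker is unchanged. The authors' deposited tables, which give the log2 ratio of flox over null, held Chd4 at 0.97 for E9.5 and 0.50 for E10.5.

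CHD4 peaks of wild-type hearts at E10.0 divided the markers. Within the gene or 5 kb of it, 5 of 10 had a peak in all 3 lists, namely Wt1, Tbx18, Tcf21, Aldh1a2 and Sema3d, while 78.6% of the 13618 tested genes with a position did. Bnc1, Aldh1a1 and Upk1b had no peak in any list, as for 6.18% of those genes. Upk3b had peaks in lists 1 and 2, and Lrrn4 in lists 1 and 3. With 50 kb around the gene, 9 of 10 markers and 92.6% of tested genes had a peak in all 3 lists, all but Aldh1a1. By role, 3 of the 4 transcription factor genes, 1 of the 2 dehydrogenase genes and 1 of the 4 genes of surface or secreted proteins had a peak in every list. The genes differ in length: Sema3d spans 205793 bp and Aldh1a1 150881 bp, against a median of 21816.5 bp over tested genes, and Tcf21 spans 2881 bp.

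A peak region shared by all 3 lists was found 5 times at Tbx18, 2 times each at Tcf21 and Sema3d and 1 time at Wt1. The shared region over the Tbx18 start lay at chr9:87731147-87731646 and held the whole promoter printed above. The score that the authors give each peak was 157, 197 and 110 there in lists 1, 2 and 3, at the 94.8th, 97.2nd and 92.7th percentile of each list. The other 4 shared regions at Tbx18 lay inside the gene or past its far end, with scores of 23 to 62. At Tcf21 the shared region inside the gene lay at chr10:22817452-22817621 (scores 32, 37 and 80) and the other past its far end at chr10:22814435-22814519 (scores 103, 23 and 45). At Wt1 the shared region was inside the gene at chr2:105134414-105134544 (scores 65, 23 and 62). At Sema3d both lay inside the gene, at chr5:12507689-12507787 and chr5:12562244-12562358. Aldh1a2 had peaks in each list but no region common to all 3.

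**Figure D5:**
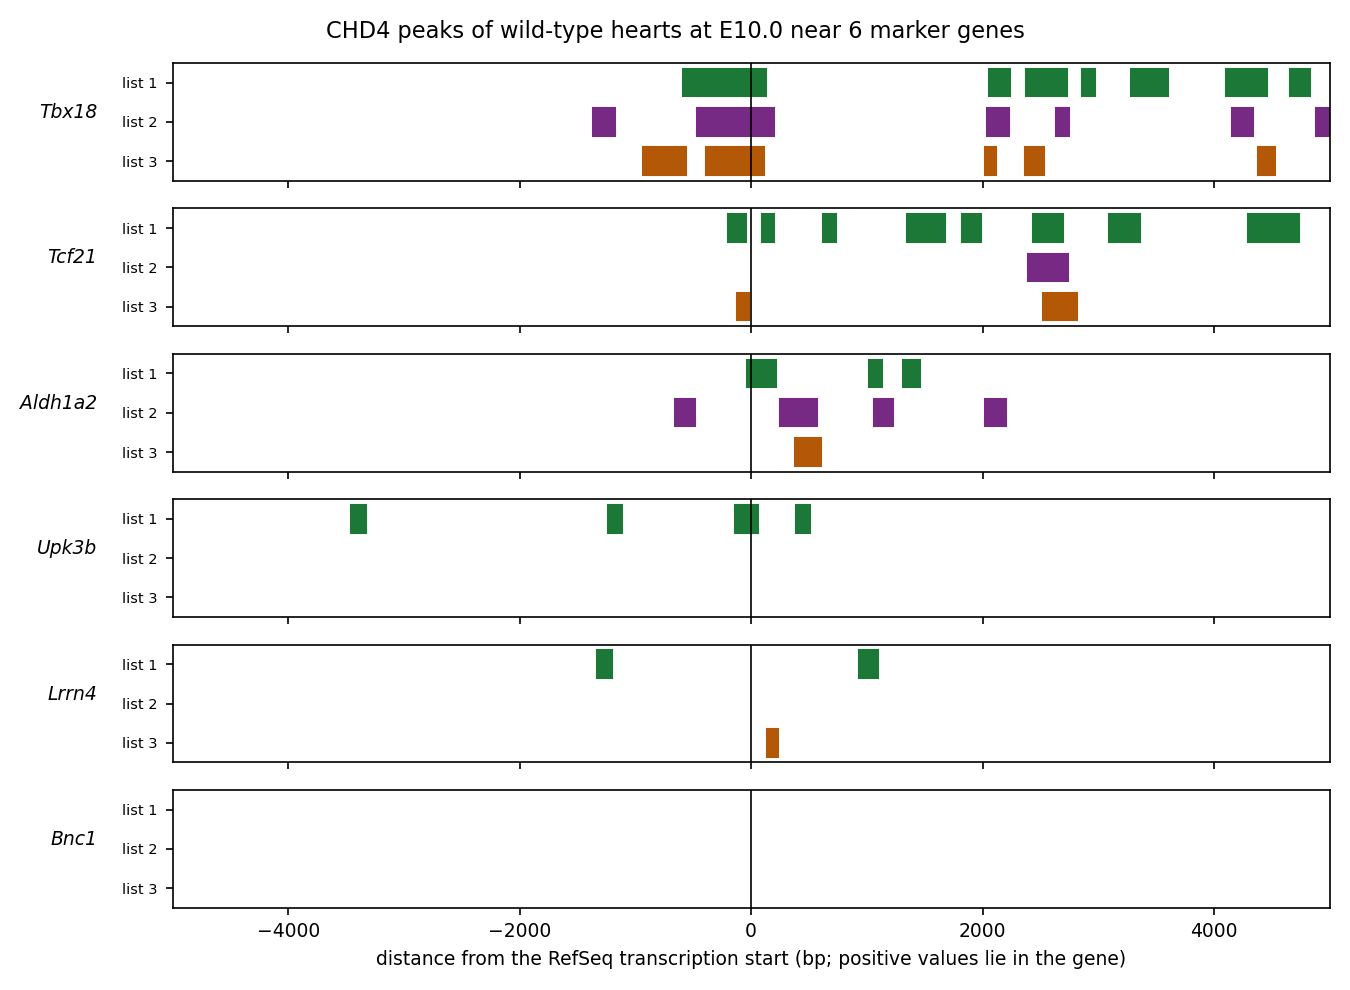
CHD4 peaks of lists 1, 2 and 3 (bars, to scale) within 5000 bp of the transcription start of 6 markers (x axis, distance in bp, with positive values inside the gene). The start used for Lrrn4 lies inside the gene as listed, so its negative values in the window are inside the gene too. Tbx18 has a peak over its start in every list and Aldh1a2 and Upk3b in list 1. Tcf21 has peaks that end just before its start in lists 1 and 3, and Bnc1 has none in the window.

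Over all 32851 promoter windows of RefSeq (250 bases before to 50 after the start), 33.5%, 27.5% and 22.1% were overlapped by a peak of lists 1, 2 and 3, and 19.6% by a peak of all 3. Among the 8 matched markers only Tbx18 was in the last class. Aldh1a1 has 2 such windows, and a string in either was counted. The window of Lrrn4 (chr2:132880813-132881112, minus strand) lies inside the gene as listed, not at its outer end. The windows of Bnc1 and Aldh1a2 were rich in CpG, with 50 each against a median of 7 over all windows, and their GC content was 83.3% and 78% against a median of 52.7%. Tbx18 had 15 CpG and 51.7% GC. A set of 6 letter strings were searched on both strands of these windows. The GC box GGGCGG, present in 35.7% of all windows, was in Bnc1 alone among the 8. The GATA string AGATAA (11.2% of windows) was in Aldh1a1 and Tcf21, and the TEAD string GGAATG (14.7%) in Aldh1a1, Lrrn4 and Upk3b. The T-box string AGGTGTGA (1.28%) was in Aldh1a1. The TATA box TATAAA (13.6%) and the EGR and WT1 string GCGGGGGCG (2.91%), which can overlap with the GC box, were in none of the 8. These are matches of letters, not sites.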

How the data were processed

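Per the labels' protocols, RNA was taken with Trizol and made into stranded polyA libraries. Per the submitters' processing notes, the build was mm10 and the tools were HTSeq 0.6.2, Bowtie 1.2.0, DESeq2 1.6.3, MACS2, SAMtools 1.6 and bedtools 2.25.0. How counting treated strand is not stated in the sources used here. The authors deposited RPKM per gene and library with the gene length in bp. Their tables of comparisons hold a deposited log2 ratio of control over null, its error and test statistic as a score, a mean signal over libraries, and a p-value, raw and adjusted. The deposited peak lists give a score per peak, whose scale no header states.

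Multiplied by length, 100% of 283886 values above 0 were whole reads to within 0.01. Tests used limma 3.58.1 (R 4.3.3) on log2(RPKM + 0.5), with a trended prior variance, two-sided, over genes whose stage mean reached 0.5 RPKM, per stage, and in 1 fit of 16 libraries for the difference between stages. Adjusted p-values follow Benjamini and Hochberg over all tested genes, and 0.05 was the threshold. The fit was tested on simulated reads with the same dispersion for all genes and libraries. That does not show what it detects in genes that are spread as widely, and vary together, as the markers at E9.5. voom on the recovered reads, other pseudocounts, filters and scalings, sample weights, a replicate block and single libraries left out were the alternatives. Leaving out the 3 libraries that stood apart was chosen after seeing the markers' levels, so the p-values of the markers without them are a description only. A log2 difference on this scale understates the change of low genes. All p-values measure the spread between these libraries.

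Whether a shared replicate number pairs libraries was not settled, so the main fits treat the libraries as unpaired and a block fit is given as an alternative. The deviations of same-numbered libraries had an r over 0.1 in 3 of 5 pairs at E9.5 and 1 of 3 at E10.5. A peak counted for a gene where it overlapped the gene with 5000 bp on each side by at least 1 bp. Gene positions came from RefSeq for 96.6% of tested genes. The input libraries of the chromatin immunoprecipitation were not analysed here. The text names all 10 markers and Chd4, up to 4 called genes of smallest p per list and stage (else the 2 most abundant), and the 8 other genes most alike. Upk2, Nr5a1, Pax2, Emx2, Osr1, Lhx9, Lhx2 and Gata4 fall outside this rule and were named after their values were seen. The markers and lists were chosen with earlier results of these data known. Python 3.11.15, numpy 2.4.6, pandas 2.3.3 and matplotlib 3.10.9 were used.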

Additional observations from a re-analysis of the deposited data

Results flagged for a closer look

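In 9 of 40 groups of 5 libraries, a single library lay far from the 4 others (a gap over 0.71 of the whole range, which chance gives in about 1 in 20 independent groups). The 40 groups share their libraries and the markers vary together (median r 0.95 over the 10 libraries of E9.5). They are thus not independent, and the 2 rates cannot be compared as a test. Null 1 was the lowest null library of E9.5 for all 10 markers, and for 5 of them its gap to the next was that wide. It held 7.03 RPKM of Wt1 (next 20.7), 2.68 RPKM of Bnc1 (next 6.53), 12 RPKM of Upk3b (next 51.8), 5.50 RPKM of Upk1b (next 30.6) and 2.15 RPKM of Sema3d (next 5.77). Flox 1 was the lowest flox library for all 10, with such a gap for Tbx18, at 10.2 RPKM (next 25.1). Null 1 had the highest summed sinus venosus markers among the null libraries, at 117 RPKM (next 82.1). Null 4 had the lowest summed cushion mesenchyme markers, at 229 RPKM (next 269). Flox 2 had the highest summed foregut and liver markers among the flox libraries of E9.5, at 36.1 RPKM (next 6.16). The part of these tissues in the marker levels was not tested.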

How the results depend on the processing

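The count of called markers at E9.5, 0 of 10, was 0 to 1 with single libraries left out (1 without null 1, Aldh1a1) and 1 without the 3 libraries that stood apart (Upk1b). At E10.5 it was 0 under all 16 alternatives. With the replicate number as a block, 4 markers were called as higher in null hearts at E9.5 (Bnc1, Aldh1a2, Upk3b and Sema3d), 0 at E10.5 and 3 for the difference between stages (Bnc1, Lrrn4 and Sema3d). At an unadjusted p under 0.05, 8, 3 and 7 of the 10 passed in these block fits. They called 3698 of 13643, 269 of 14100 and 1384 of 13418 tested genes. The share of all tested genes at an unadjusted p was not computed for them. Whether the numbers pair the libraries was not settled: 3 of 5 numbers at E9.5 and 1 of 3 at E10.5 correlated best with their own. With 50 kb around the gene, 9 markers had a CHD4 peak in all 3 lists.

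With single libraries left out, the E9.5 log2 difference was -0.020 to 0.53 for Wt1, -0.043 to 0.40 for Tbx18 and -0.072 to 0.58 for Tcf21, each lowest without flox 1. The E10.5 difference was -0.23 to 0.18 for Tcf21, -0.18 to 0.16 for Aldh1a2, -0.067 to 0.078 for Upk3b and -0.14 to 0.20 for Upk1b, and the stage difference of Tcf21 was -0.64 to 0.0091. Other settings that turned a sign, all at E10.5, gave 0.0092 for Aldh1a2 (median scaling), 0.010 for Aldh1a2 and -0.0054 for Upk3b (quantile normalization), and 0.15 for Tcf21 and -0.10 for Upk1b (sample weights). The cause was not tested.

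Over all genes, 2342 were called at E9.5 (937 higher), against 3549 with sample weights, 3698 with the block, 1349 without the 3 libraries and 1537 to 2773 with single libraries left out. The share higher among called genes was 52.8% with median scaling. At E10.5 292 were called, against 162 with no filter, 1426 with sample weights and 62 to 356 with single libraries left out. For the difference between stages 542 were called, against 843 with quantile normalization, 234 with sample weights, 1384 with the block, 0 without the 3 libraries and 4 to 1796 with single libraries left out; 52.8% were higher with median scaling and 52% with quantile normalization, against 352 of 542. With 3 libraries a group at E10.5 and a wide spread at E9.5, the intervals of the markers limit what could be detected.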
